A study of Mus musculus with 6 samples.

Results

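Tissue dissected from bone can carry transcripts of bone-forming cells. Here 10 genes known from these cells are described in the mouse auditory nerve: Bglap, Bglap2, Ibsp, Sparc, Spp1, Alpl, Sp7, Runx2, Dmp1 and Phex. They were taken by gene symbol, and all 10 were found among the 17666 genes of the table. The study measured RNA of auditory nerves from young adult mice of 1.5 to 2.5 months, 3 wildtype C57 mice and 3 C57 mice labelled FactorB KO, a knockout of complement factor B. Each library came from 1 mouse, whose 2 cochleas were pooled. The labels do not give the knockout allele, or say whether the wildtype mice were littermates.

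The spiral ganglion and its nerve run inside the bony core of the cochlea, so that a nerve dissection can carry bone and marrow. Osteoblasts are specified by the transcription factors Runx2 and Sp7. They lay down collagen and then the mineral-binding proteins osteocalcin, bone sialoprotein, osteonectin and osteopontin. Cells that become buried in the mineral turn into osteocytes, which express Dmp1 and Phex and control phosphate.

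Osteocalcin, the vitamin K-dependent bone protein made late by osteoblasts, is encoded in the mouse by neighbouring copies. Bglap and Bglap2 lie side by side on chromosome 3 (mm10, 88383495 to 88384466 and 88377736 to 88378701, minus strand), each with 4 exons. Their coding sequences, printed from GENCODE with the differing bases in capitals, show how little separates the copies.
Bglap: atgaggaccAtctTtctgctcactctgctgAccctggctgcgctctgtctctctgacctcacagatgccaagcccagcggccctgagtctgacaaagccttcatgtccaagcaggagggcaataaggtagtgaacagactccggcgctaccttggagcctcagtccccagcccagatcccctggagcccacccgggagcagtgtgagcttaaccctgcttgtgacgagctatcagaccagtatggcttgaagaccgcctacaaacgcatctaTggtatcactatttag
Bglap2: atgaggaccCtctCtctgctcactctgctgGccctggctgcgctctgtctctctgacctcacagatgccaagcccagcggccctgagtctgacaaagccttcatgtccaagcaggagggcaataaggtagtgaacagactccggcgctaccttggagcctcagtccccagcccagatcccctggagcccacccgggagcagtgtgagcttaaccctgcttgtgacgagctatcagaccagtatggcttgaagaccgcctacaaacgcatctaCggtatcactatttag
The 288 coding bases, stop codon included, differed at 4 positions, so that 98.6% were identical. Counted from 1 at the A of the start codon, with the base of Bglap first, the differences were A10C, T14C, A31G and T273C. Of all stretches of 50 bases in the Bglap transcript, 74.7% were also found in the Bglap2 transcript, and 20.5% in a transcript of Bglap3, a further copy without a row in the table. Reads of Bglap and Bglap2 could thus be divided between the copies, and their separate values are uncertain; the sum is given beside them.

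The promoters of Bglap, of the bone sialoprotein gene Ibsp and of Runx2 are shown because Bglap and Ibsp had lower values under the knockout label and Runx2 did not. Promoter sequence was found in RefSeq (GRCm38.p6) for 8 of the 10 genes. Each line holds the 250 bases before a listed start of the gene, 5′ to 3′ on the gene's own strand. The RUNX core motif ACCACA, searched on both strands, is in capitals. For Runx2 this start lies inside the gene's outer bounds, which reach 44814797, so part of its window is within the gene. Bglap is chr3:88384467-88384716 (minus strand), Ibsp chr5:104299037-104299286 (plus strand) and Runx2 chr17:44814628-44814877 (minus strand).
Bglap: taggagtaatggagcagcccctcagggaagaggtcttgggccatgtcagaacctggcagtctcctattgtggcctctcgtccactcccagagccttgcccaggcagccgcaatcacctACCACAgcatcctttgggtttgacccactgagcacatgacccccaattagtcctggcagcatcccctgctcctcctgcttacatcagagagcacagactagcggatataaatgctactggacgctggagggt
Ibsp: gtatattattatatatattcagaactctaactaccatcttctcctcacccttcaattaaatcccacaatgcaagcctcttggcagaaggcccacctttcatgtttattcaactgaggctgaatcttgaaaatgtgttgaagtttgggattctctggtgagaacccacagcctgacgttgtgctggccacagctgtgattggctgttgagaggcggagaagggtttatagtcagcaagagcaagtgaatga
Runx2: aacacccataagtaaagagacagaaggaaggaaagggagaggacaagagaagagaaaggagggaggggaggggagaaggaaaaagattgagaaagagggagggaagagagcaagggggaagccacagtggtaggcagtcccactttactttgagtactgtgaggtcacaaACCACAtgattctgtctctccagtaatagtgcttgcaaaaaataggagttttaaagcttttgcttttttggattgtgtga
The motif began 132 bases before the start of Bglap and 80 bases before the listed start of Runx2, and these letters were not in the window of Ibsp. A promoter of Spp1 and 1 of Dmp1 held it too. In all, 4 of the 11 windows of these genes had a match, and 14.0% of 32851 promoter windows of this length did. A match of letters is a description and does not show that a factor binds.

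The libraries are compared as labelled, although Cfb, the targeted gene, had higher values under the knockout label. The allele is not given, so its effect on Cfb RNA is unknown, and why Cfb was higher was not tested. Cfb had 55, 39 and 116 normalized counts under the wildtype label, replicates 1 to 3 in order. Under the knockout label it had 336, 351 and 376. It was 5.08-fold higher with a false discovery rate of 1.8e-06 in the authors' deposited table. By limma over all 17666 genes the log2 difference, knockout minus wildtype, was 2.47. Its Benjamini-Hochberg adjusted p by limma was 0.107, so Cfb did not pass that test. If the labels were exchanged, the direction of every difference given here would turn. Normalized counts are the authors' gene counts scaled per library, and they summed to between 38675077 and 41496282 per library, a total set by that scaling, so the read depth is unknown. The nerve itself was present in every library: the neuronal gene Snap25 had 59190 to 125727 normalized counts. Wildtype replicate 3 stood apart in several ways. It had the lowest value of the 6 libraries for 7 of 10 Schwann cell and 8 of 10 spiral ganglion neuron markers, against 4799 of all 17666 genes. It had the highest value for 6 of the 10 bone genes, against 27.9% of all genes.

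Levels per kilobase of the longest annotated transcript spanned a wide range. In the wildtype libraries osteopontin (Spp1) was highest, with a mean of 120000 normalized counts per kb, followed by osteonectin (Sparc) with 31700. Both proteins are also made outside bone, Sparc by glia, fibroblasts and endothelium and Spp1 by neurons, glia and macrophages, so their level here does not measure bone. The other genes followed far below, with Bglap at 1610 and Dmp1 at 1440 per kb, whose ranges overlapped. Bglap2 (817), Ibsp (688) and Alpl (674) had overlapping ranges, and those of Bglap2 and Ibsp also overlapped those of Bglap and Dmp1. Phex (201) and Sp7 (153) overlapped as well. Runx2 was lowest with 53.4 per kb. In the libraries labelled knockout the order below Sparc was different: Dmp1 (1270 per kb) and Alpl (727) came before Bglap (373) and Ibsp (306), and Bglap2 (169) lay next to Sp7 (175).

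**Figure D1:**
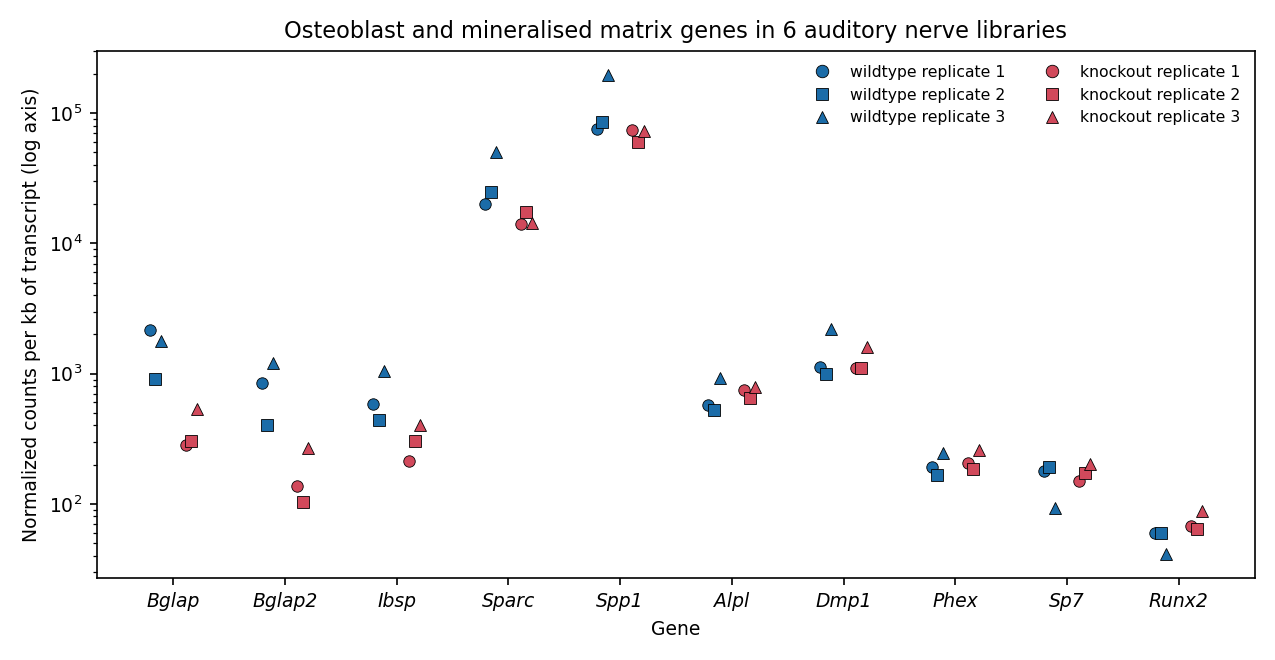
Normalized counts per kb of transcript (log axis) of the 10 genes in each library, with blue for wildtype, red for knockout and the marker shape for the replicate. Bglap, Bglap2, Ibsp, Sparc and Spp1 were lower in every library labelled knockout, Spp1 only just, and Runx2 was higher. Alpl, Dmp1, Phex and Sp7 overlapped between the labels.

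Among the 10 genes the osteocalcin copies had the lowest values under the knockout label relative to the wildtype label, and no gene passed limma with adjustment. Bglap had 947, 403 and 780 normalized counts under the wildtype label and 124, 134 and 234 under the knockout label. The groups did not overlap, and the means of 710.0 ± 278.7 and 164.0 ± 60.8 (SD, n = 3 each) were 4.33-fold apart. Bglap2 had 399, 190 and 565 against 64, 49 and 126, a 4.83-fold difference without overlap. The sum of both copies was 1346, 593 and 1345 against 188, 183 and 360, which is 4.49-fold. The ratio of Bglap to Bglap2 was 1.96 ± 0.516 under the wildtype label and 2.18 ± 0.485 under the knockout label (SD, n = 3 each), and these ranges overlapped.

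Ibsp encodes bone sialoprotein, which binds hydroxyapatite and starts mineral deposition. Its values were 1207, 913 and 2151 under the wildtype label and 442, 629 and 827 under the knockout label, a 2.25-fold difference of the means. Again no library labelled knockout reached the lowest wildtype value. Sparc, the collagen-binding osteonectin, had 46001, 56931 and 115631 against 32352, 40052 and 32803, a 2.08-fold difference. Spp1, the mineralisation inhibitor and cytokine osteopontin, had 114949, 129521 and 298110 against 111232, 90254 and 109300. For Sparc and Spp1 wildtype replicate 3 alone was above the sum of the other wildtype libraries, and for Spp1 the remaining wildtype values lay just above the knockout range.

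On the log2(value + 1) scale the differences, knockout minus wildtype, were -2.08 for Bglap (SE 0.38, 95% interval -2.97 to -1.19), -2.24 for Bglap2 (SE 0.49, -3.39 to -1.09) and -1.12 for Ibsp (SE 0.35, -1.95 to -0.29). They were -0.94 for Sparc (SE 0.34, -1.75 to -0.13) and -0.67 for Spp1 (SE 0.39, -1.60 to 0.25). With limma over all 17666 genes and Benjamini-Hochberg adjustment, 0 of the 10 genes passed 0.05, where 0.158% of all genes did (0.0566% as lower and 0.102% as higher). The adjusted p was 0.132 for Bglap, 0.158 for Bglap2, 0.181 for Ibsp, 0.206 for Sparc and 0.377 for Spp1. At an unadjusted p under 0.05, 4 of 10 were lower and 0 higher, against 9.20% of all genes as lower and 20.0% in either direction. Bglap and Bglap2 enter the counts of this paragraph separately, although their reads could be divided between the copies. With the copies summed, as chosen after the data were seen, 3 genes of the set had an unadjusted p under 0.05 by limma. By the authors' deposited table Bglap, Bglap2, Ibsp and Sparc, 4 of the 10 genes, had a false discovery rate under 0.05 and were lower, where 2.87% of all genes were called as lower and 6.53% in either direction. The rates and folds in the authors' deposited table were 1.57e-05 and -4.33 for Bglap, 0.000429 and -4.84 for Bglap2, 0.0294 and -2.25 for Ibsp, and 0.0360 and -2.08 for Sparc. The libraries of the labels did not overlap, with the knockout lower, for 5 of 10 genes, and 14.9% of all genes met that description. With Runx2, whose values were higher, 6 of 10 genes had no overlap, against 28.5% of all genes. With 3 against 3 libraries an exact permutation test of 1 gene, two-sided, cannot give a p below 0.1, which it gave for each of these 6.

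Without wildtype replicate 3 the difference of Sparc was -0.55 (adjusted p = 0.0929 by limma, in a range of 0.0929 to 0.488 over the alternatives) and that of Spp1 -0.24. For Bglap it was -1.97 and for Ibsp -0.78, against -2.08 and -1.12 with all libraries. Bulk RNA cannot tell fewer bone-forming cells in a sample from less RNA per cell.

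The 2 transcription factors of the lineage did not follow the matrix genes. Runx2, the master regulator of osteoblast fate, had 384, 386 and 266 normalized counts under the wildtype label and 437, 416 and 570 under the knockout label. The knockout values were all above the wildtype values, with a log2 difference of 0.46 (95% interval -0.03 to 0.96, adjusted p = 0.273 by limma). Sp7, also called osterix, which acts after Runx2, had 547, 590 and 287 against 466, 537 and 626, and the groups overlapped (0.25, interval -0.43 to 0.93). Wildtype replicate 3 was the lowest library for both; without it Sp7 had a difference of -0.08 and Runx2 of 0.29. Bglap counted against Runx2 within each library gave ratios of 2.47, 1.04 and 2.93 under the wildtype label and 0.284, 0.322 and 0.411 under the knockout label. The mean ratios were 6.34-fold apart; the ratio was chosen after the values were seen, and since neither gene overlapped between the labels, in opposite directions, it could not overlap either. Runx2 lies on chromosome 17 (44495987 to 44814797, mm10), 9.6 Mb from Cfb.

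The enzyme and osteocyte genes overlapped between the labels. Alpl, the phosphatase that removes the mineralisation inhibitor pyrophosphate, had 1449, 1329 and 2321 normalized counts against 1871, 1646 and 1982 (log2 difference 0.15, 95% interval -0.36 to 0.66). Dmp1, an acidic matrix protein of osteocytes, had 3107, 2738 and 6080 against 3049, 3079 and 4412 (-0.11, interval -0.84 to 0.63). Phex, the osteocyte endopeptidase whose loss causes phosphate wasting, had 1196, 1031 and 1543 against 1295, 1161 and 1607 (0.11, interval -0.33 to 0.56). The highest wildtype value of Alpl, Dmp1 and Phex was again that of replicate 3. These intervals do not show equal levels. The lowest bound among them was -0.84, for Dmp1, while the interval of Bglap ended at -1.19.

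**Figure D2:**
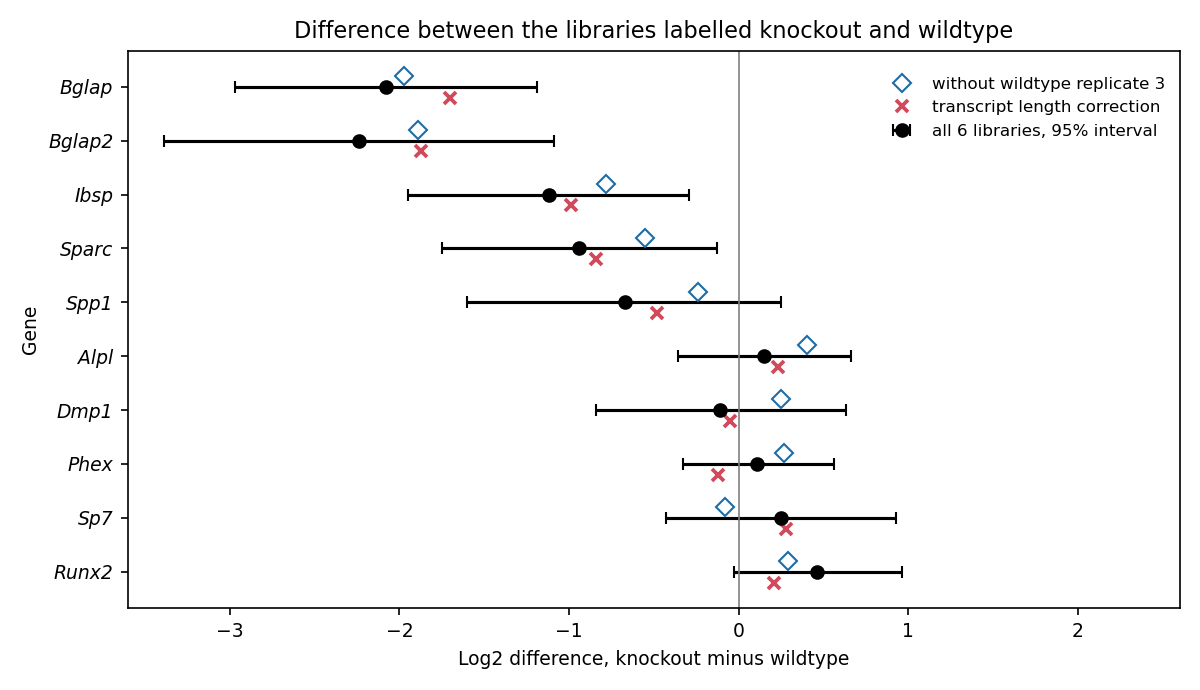
Log2 difference, knockout minus wildtype, of each gene (horizontal axis) with all 6 libraries (black, 95% interval by limma), without wildtype replicate 3 (open diamond) and after a correction for transcript length (cross). Bglap and Bglap2 lie at -2.08 and -2.24, and Dmp1, Phex and Sp7 lie on both sides of 0 depending on the setting.

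The matrix genes were also counted relative to Dmp1 within each library, a scale chosen after the values were seen. Ibsp per Dmp1 was 0.388, 0.333 and 0.354 under the wildtype label and 0.145, 0.204 and 0.187 under the knockout label. The spread among wildtype libraries, wide for Ibsp itself, was narrow on this scale, and the means of 0.359 ± 0.0278 and 0.179 ± 0.0306 (SD, n = 3 each) were 2.00-fold apart. Bglap per Dmp1 was 0.305, 0.147 and 0.128 against 0.0407, 0.0435 and 0.0530, and Sparc per Dmp1 was 14.8, 20.8 and 19.0 against 10.6, 13.0 and 7.43. Of the 9 other genes, 5 were lower in every library labelled knockout on this scale, the same 5 as before, where 1.82% of all genes met that description. Bglap and Bglap2 are counted separately here too. That share depends on the choice of Dmp1, and without the division it was 14.9%. Dmp1 was highest in wildtype replicate 3 (6080, against 3107 and 2738), so dividing by it lowered the ratios of that library. Bglap2, Ibsp, Sparc and Spp1 were highest in the same library. The 5 of 9 beside 1.82% is therefore a description of this scale and not a test. Alpl, Sp7, Runx2 and Phex overlapped relative to Dmp1.

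In a limma fit of all genes relative to Dmp1, Bglap (-1.97, adjusted p = 0.0169) and Bglap2 (-2.13, adjusted p = 0.0150) passed 0.05 as lower, where 0.209% of all genes did, and the median of all genes lay at 0.11. Ibsp did not pass there (adjusted p = 0.793). Both calls were lost without wildtype replicate 1, knockout replicate 1 or knockout replicate 2, with adjusted p of 0.408, 0.438 and 0.550 for Bglap and 0.228, 0.312 and 0.708 for Bglap2.

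**Figure D3:**
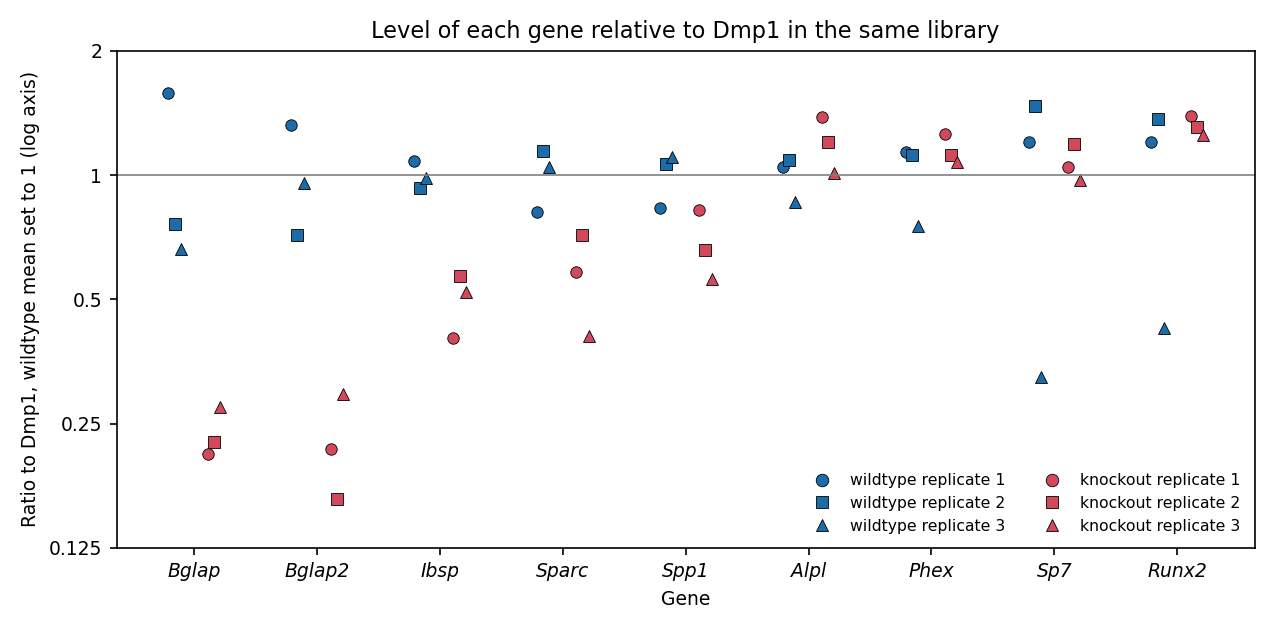
Ratio of each gene to Dmp1 within each library, divided by the mean ratio of the wildtype libraries (log axis). Bglap, Bglap2, Ibsp, Sparc and Spp1 did not overlap between the labels, Spp1 only just. Before that division Ibsp was at 0.333 to 0.388 per Dmp1 in wildtype and 0.145 to 0.204 in knockout libraries.

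Ibsp, Dmp1 and Spp1 belong to 1 gene family of acidic, integrin-binding mineral proteins, which sits with Dspp and Mepe in 270 kb of chromosome 5 (mm10, 104170703 to 104441053). The differences of these neighbours from each other were not tested. Mepe, an osteocyte gene between Ibsp and Spp1, had 621, 448 and 1326 normalized counts against 494, 725 and 1183 (log2 difference 0.07, 95% interval -1.01 to 1.14, which overlaps those of Ibsp, Dmp1 and Spp1), and its ratio to Dmp1 was 0.194 ± 0.0277 against 0.222 ± 0.0543 (SD, n = 3 each). Dspp, the dentin gene, had 1 to 8 normalized counts in every library.

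Other genes known from bone were taken from lists. Whether their transcripts came from bone was not tested, so a median near 0 does not show equal levels in bone cells. Of 17 collagen and collagen-processing genes, 0 passed by limma or in the authors' deposited table, and the median log2 difference was -0.02, against 0.01 over all genes. Col1a2, a chain of bone's main collagen, had a difference of -0.01, and Serpinh1, the collagen chaperone, of -0.20. Among 12 further bone matrix genes 0 passed either test (median -0.03), with 0.33 for the calcification inhibitor Mgp and -0.05 for biglycan (Bgn). Ifitm5, a membrane protein of mineralising osteoblasts, was picked from this list after its values were seen. It had 53, 16 and 26 normalized counts against 6, 9 and 9, a log2 difference of -1.72 (adjusted p = 0.172 by limma; a rate of 0.0604 in the authors' deposited table). The 12 osteoblast lineage factors (median 0.11), 11 mineralisation and phosphate genes (median 0.00) and 12 osteocyte genes (median 0.06) also had 0 calls by limma and 0 in the authors' deposited table. Their most abundant genes were Atf4 (-0.04) and Zfp521 (0.26), the pyrophosphate transporter gene Ank (0.01) and the phosphate transporter gene Slc20a1 (0.16), and Hyou1 (0.19) and Mmp14 (0.24). At an unadjusted p under 0.05 these 3 lists held 0 genes each, the collagen list 2 (11.8%) and the matrix list 3 (25%), around the 20.0% of all genes.

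Signalling and cartilage genes are given for comparison. Of 22 bone signalling genes (median 0.28) 0 passed by limma and 5, or 22.7%, had an unadjusted p under 0.05, near the 20.0% of all genes. The authors' deposited table called 2 of the 22 as higher, and 646 of all 17666 genes. These 2 were the bone morphogenetic protein gene Bmp2 (1.82-fold, rate 0.0369) and Wnt16 (1.79-fold, rate 0.00660). Of 16 chondrocyte genes (median 0.11, and 0.34 without wildtype replicate 3) 0 passed by limma and 4, or 25%, had an unadjusted p under 0.05. In the authors' deposited table, which calls 6.53% of all genes, the cartilage genes Acan (1.71-fold) and Col2a1 (1.55-fold) were higher, and Ucma was 2.46-fold lower. Ucma had 4257, 6316 and 15235 normalized counts against 3748, 3444 and 3295, once more highest in wildtype replicate 3.

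**Figure D4:**
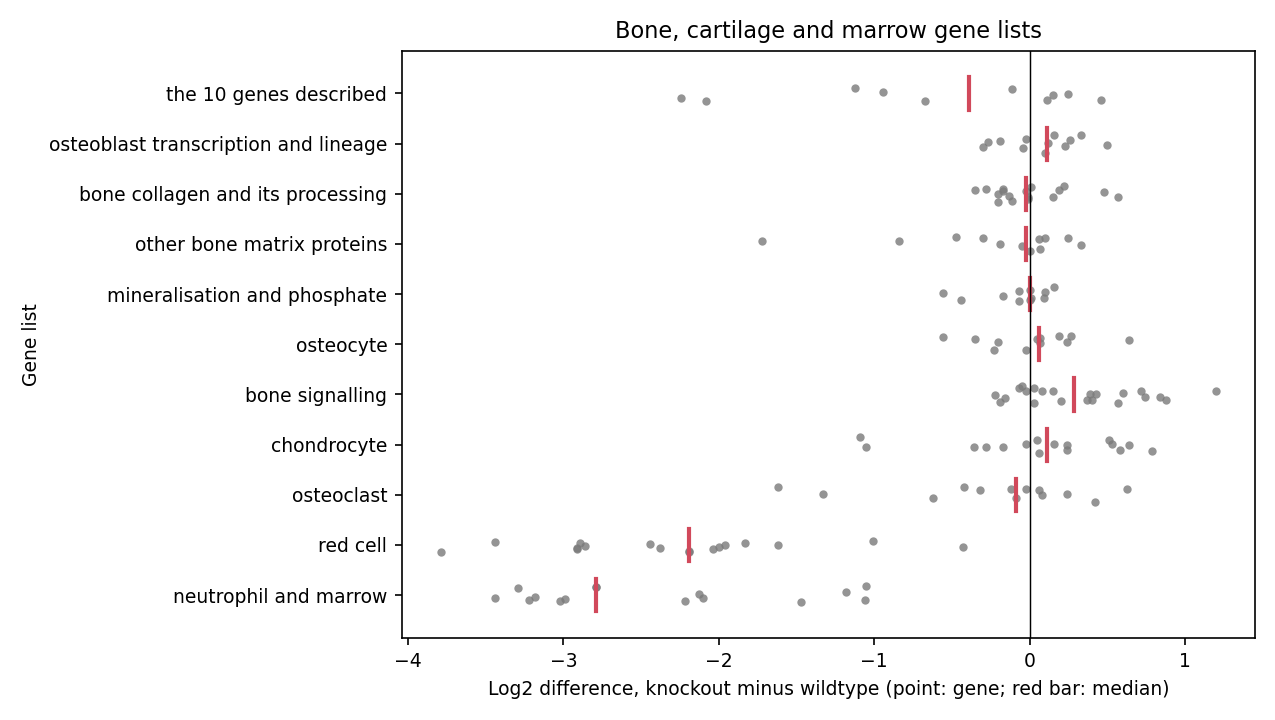
Log2 difference of each gene (points, horizontal axis) in the bone, cartilage and marrow lists, with the median of each list as a red bar. The red cell and marrow lists lie at medians of -2.19 and -2.79, and every other list besides the 10 genes has a median between -0.09 and 0.28.

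Blood and marrow transcripts had low values under the knockout label, as the osteocalcin genes did. Over 17 red cell genes the sums were 10950, 11462 and 34988 under the wildtype label and 4070, 3951 and 2753 under the knockout label. All 17 had a negative difference, 0 passed by limma, 13 had an unadjusted p under 0.05, and 9 were called as lower in the authors' deposited table. Over all 17666 genes 8709 had a negative difference, 20.0% had an unadjusted p under 0.05, and 2.87% were called as lower in the authors' deposited table. Among these red cell genes in the authors' deposited table were the anion exchanger gene Slc4a1 (14.5-fold) and the globin genes Hbb-bt and Hbb-b2 (each 9.85-fold), whose rows hold the same values. With these counted once, a count added after the data were seen, 16 of 16 had a negative difference, 12 had an unadjusted p under 0.05, and 8 were called as lower in the authors' deposited table. Over 15 neutrophil and marrow genes the sums were 937, 1189 and 3006 against 803, 461 and 56, with 0 calls by limma, 11 genes at an unadjusted p under 0.05, and 5 called as lower in the authors' deposited table, among them Mmp8 (8.27-fold), S100a9 (6.40-fold), Camp (6.35-fold) and Mpo (6.24-fold). The lactoferrin gene Ltf alone had 460 in knockout replicate 1; without it, as added after the data were seen, the sums were 834, 1086 and 2472 against 343, 400 and 55. In these lists 3 and 5 genes were listed at 0 in at least 1 library, the erythroid factor gene Gata1 in all 3 libraries labelled knockout.

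Wildtype replicate 3 was highest for 16 of 17 red cell genes, 13 of 15 marrow genes and 6 of the 10 bone genes, against 27.9% of all genes. Relative to the wildtype mean it stood at 1.51 for Ibsp and 1.53 for Dmp1, beside 1.83 for the red cell and 1.76 for the marrow sum. The osteocalcin copies had another order of libraries. Relative to the wildtype mean, the sum of Bglap and Bglap2 was 1.23, 0.542 and 1.23 under the wildtype label, and the red cell sum 0.572, 0.599 and 1.83. In the libraries labelled knockout replicate 3 had the most osteocalcin transcript (0.329, against 0.172 and 0.167) and the least red cell and marrow transcript (0.144 and 0.0327). The part of marrow content in the osteocalcin values was not tested.

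**Figure D5:**
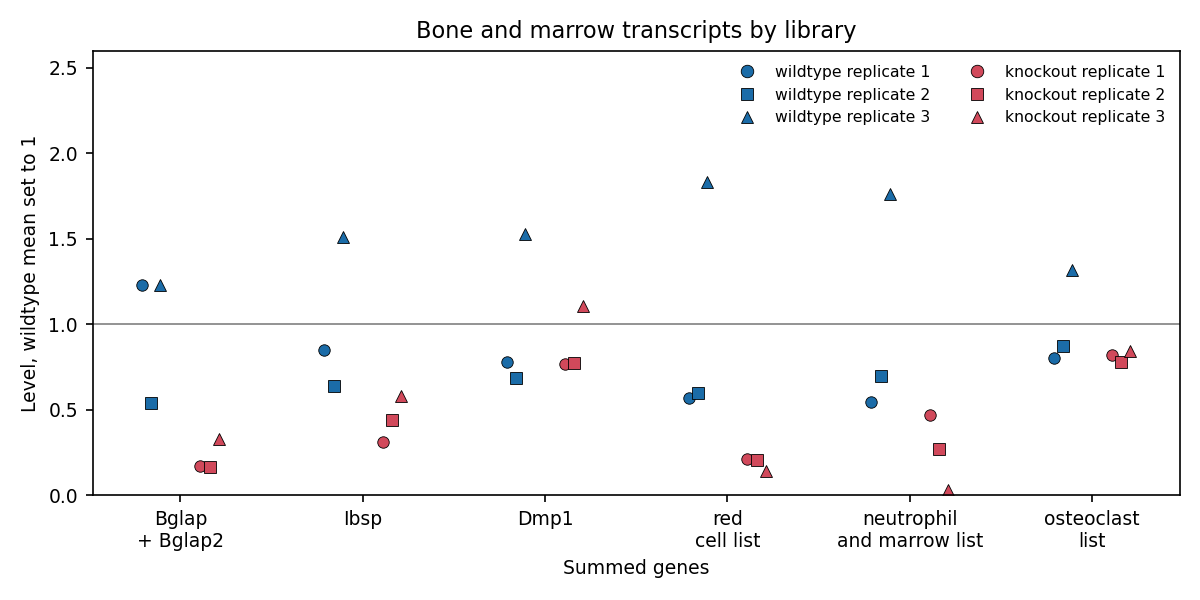
Level of the osteocalcin copies, Ibsp, Dmp1 and 3 summed lists in each library, with the wildtype mean set to 1. Knockout replicate 3 is highest among knockout libraries for the osteocalcin sum (0.329) and lowest for the red cell (0.144) and marrow (0.0327) lists.

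Over 13 genes of osteoclasts, the cells that resorb bone, the sums were 14115, 15350 and 23210 against 14455, 13670 and 14788, the median difference was -0.09, and 0 genes passed by limma (3 had an unadjusted p under 0.05). Of these 3, Itgb3, an integrin gene, was called as higher, 1.55-fold, in the authors' deposited table. The others, named after their values were seen, had negative differences without overlap, -0.62 for the collagenase gene Ctsk and -0.32 for Ostm1. These were the only 2 of the 13 that were lower without overlap, where 14.9% of all genes were. Of the 13 genes 8 lay below 0, as did 8709 of all 17666 genes. Of 10 fibroblast genes (median -0.10, 2 at an unadjusted p under 0.05) Pi16 rose by limma (log2 difference 2.14, adjusted p = 0.0297), a call lost when any 1 of the knockout libraries was left out, where limma called 0 genes. The count of 2 in 10 equals the 20.0% of all genes. In the authors' deposited table Pi16 was called as higher too, and the collagen-binding gene Lum was 1.87-fold lower. Of 10 macrophage genes (median 0.01), a source of Spp1, 0 passed either test and 2 had an unadjusted p under 0.05, with 0.17 for Csf1r and -0.33 for C1qb. Of 10 Schwann cell genes (median -0.21) 0 passed by limma, 2 had an unadjusted p under 0.05, and Pmp22 and Ncmap were 1.69- and 1.58-fold lower in the authors' deposited table. Among 10 neuronal genes the median was 0.29, and limma called 0, with 1 at an unadjusted p under 0.05. The potassium channel gene Kcna1 was 1.39-fold higher by the authors' deposited table.

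Transcript length went with the differences across all genes and also among the 10. The median log2 difference was -0.21 over genes with transcripts up to 2.05 kb and 0.24 over those above 4.63 kb. Bglap (0.44 kb), Bglap2 (0.471 kb) and Spp1 (1.51 kb) fall in the first, and Runx2 (6.46 kb) and Phex (6.26 kb) in the last. After a correction for length the differences were -1.70 for Bglap, -1.87 for Bglap2, -0.99 for Ibsp, -0.84 for Sparc, -0.48 for Spp1 and 0.21 for Runx2. What gives the relation with length was not tested.

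Genes whose values ran most like those of Ibsp and Sparc over the 6 libraries were found among 13528 genes by Pearson's r on the log2 scale, as a description. For Ibsp these were Narf (0.981), Babam1 (0.978), Isg20 (0.973), Fam189a2 (0.973), Srpx (0.972) and Arhgap9 (0.971). Srpx had 102, 99 and 142 normalized counts against 61, 72 and 75. For Sparc they were Ip6k3 (0.997), Cnot11 (0.995), Puf60 (0.994), Pigz (0.993), Ctsf (0.992) and Ip6k2 (0.992), all highest in wildtype replicate 3, as Sparc was. All of these values share the same 6 libraries and their composition.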

How the data were processed

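Per the labels' protocols, nerves were microdissected, RNA was purified with a miRNeasy kit and degraded samples were left out; the library kit was TruSeq RNA. The submitters' processing notes name mm10, TopHat2, Partek and DESeq2 but give no version or role. How strand was treated is not given in the sources used here. Values deposited for each gene are a score made by the authors, gene counts scaled per library and rounded; this reading rests on median-of-ratios factors of 1.0038 to 1.0068 and on 99.9% of 13938 genes whose deposited fold lay within 1% of the ratio of means. The authors' deposited table also gives a fold and a false discovery rate per gene, with no rate for 2061 genes. No count test was run. Unused sample columns numbered 0.

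Values were transformed as log2(value + 1), which understates changes of low genes. A minimum mean of 1 removed 0 genes. Limma 3.58.1 in R 4.3.3 fitted the label alone, using eBayes with a variance trend, and p-values were adjusted by Benjamini-Hochberg at 0.05; the fit was tested on simulated data. The 10 genes and 14 lists (osteoblast lineage, collagen, matrix, mineralisation, osteocyte, signalling, chondrocyte, osteoclast, red cell, marrow, fibroblast, macrophage, Schwann cell and neuron) were chosen with earlier results of these data known. In each list the text names up to 4 genes called by limma and up to 4 called by the authors, or else the 2 most abundant, and a gene that this rule names is not reported here; Mepe, Dspp, Ifitm5, Ltf, Ctsk, Ostm1 and Gata1 were named after their values were seen. For likeness the 6 genes with the highest r were taken, among genes with a mean of at least 50, leaving out the 10 genes and symbols that only number a gene model. The alternatives changed the pseudocount, filter, scaling, variance trend, sample weights, replicate block and transcript length (longest GENCODE M21 transcript, 17358 genes, lowess span 0.3), and left out each library. Between any pair of libraries the chi-square per gene was 24.3 or more. It was taken on scaled values, whose sampling noise is unknown without the read depth, so it only describes how far libraries differed. P-values measure the spread between these mice only.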

Additional observations from a re-analysis of the deposited data

How the results depend on the processing

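In each of 14 alternatives 0 of the 10 genes passed, and Bglap, Bglap2, Ibsp, Sparc, Spp1 and Runx2 kept their direction. Bglap ranged from -2.44 to -1.70 (adjusted p 0.0508 to 0.485 by limma), Bglap2 from -2.68 to -1.87, Ibsp from -1.39 to -0.78, Sparc from -1.22 to -0.55, Spp1 from -0.93 to -0.24 and Runx2 from 0.21 to 0.55. Directions of genes near 0 turned: Dmp1 to 0.11 with sample weights (-0.33 to 0.25 with 1 library left out, the highest without wildtype replicate 3), Phex to -0.12 with the length correction and -0.02 without wildtype replicate 2 or knockout replicate 3 (up to 0.27), Alpl to -0.01 without wildtype replicate 2 (up to 0.40), and Sp7 to -0.08 without wildtype replicate 3 (up to 0.44); the cause was not tested. Of all genes limma called 28, and 16 without a variance trend, 111 with sample weights, and 0 to 566 with 1 library left out (0 by limma when any 1 of the knockout libraries was left out, with 1797 to 2218 genes at an unadjusted p under 0.05, and 566 without wildtype replicate 3). With the replicate block 7 genes were called and Bglap stayed at -2.08. Same-numbered libraries deviated together with correlations of -0.034, 0.086 and 0.201, and differently numbered ones with -0.338 to 0.391. With so few libraries these values cannot show whether the numbers pair the mice. With Bglap and Bglap2 summed, chosen after seeing the data, the difference was -2.14 (adjusted p = 0.138). Read depth, which is unknown here, limits what can be said of low genes such as Ifitm5.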
